A study of Mus musculus with 4 samples.

Results

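The Clec4 family and Dectin-1 are C-type lectin receptors of myeloid cells. Of the 8 listed genes, 7 (Clec4a1, Clec4a2, Clec4a3, Clec4b1, Clec4d, Clec4e and Clec4n) had a row by symbol in all 4 gene lists of 32285 genes. Clec7a, the gene of Dectin-1, was not analysed here. The genes were listed by name with their levels in these data already known, so the levels by library and by subset are a description without a test.

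C-type lectin receptors bind sugars and glycolipids on fungi, mycobacteria and dying cells. Clec4e (Mincle), Clec4d (MCL), Clec4n (Dectin-2) and Clec4b1 (DCAR) are activating receptors that pair with the Fc receptor gamma chain (Fcer1g), which recruits the kinase Syk and, through Card9, Bcl10 and Malt1, leads to NF-kB and to cytokines such as Il1b and Tnf. Clec4a2 (DCIR) carries an inhibitory motif in its tail that recruits the phosphatases Ptpn6 and Ptpn11, and Clec4a1 and Clec4a3 are close relatives of it. In skin, these receptors are carried by macrophages, monocytes, dendritic cells and neutrophils.

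The 4 libraries held CD45+ leukocytes sorted from enzyme-digested hindpaws of male mice and were made with 10x droplet single-cell RNA-seq, 1 library per condition. Each library pooled 2 to 3 mice, so no comparison between conditions has a replicate, and every interval given for one covers counting error only. DB mice were Lepr db/db mice on the C57BLKS/J background, obese and diabetic and homozygous for the db allele of the leptin receptor gene, and WT mice were littermates. Both genotypes were taken at 12 weeks (labelled Young) and at 21 weeks (labelled Aged), and the libraries are named by week and genotype. Values of the 4 libraries are given throughout in the order 12-week-WT, then 12-week-DB, then 21-week-WT, then 21-week-DB.

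Of 30793 barcodes, 27800 were kept (5271, 6552, 7270 and 8707), with medians of 7390, 7193.5, 8000.5 and 5355 UMIs (unique transcripts). The genotype labels were not checked on Lepr, of which the libraries held 28, 16, 30 and 17 UMIs. Between any pair of libraries, 237 barcodes were shared in all, 146 of them between 21-week-WT and 21-week-DB. Among macrophages 18, 14, 14 and 10 barcodes were shared, and among neutrophils 4, 4, 1 and 1. Leaving all shared barcodes out ended 1 of the calls below and turned 1 ratio that is described, both in neutrophils and given there. The 21-week files were made with a newer version of Cell Ranger, so age and software cannot be told apart.

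The 7 measured genes lie together on mouse chromosome 6 (GRCm38), within 368.0 kb. From the proximal side they are Clec4a1 (chr6:122921848-122934619, plus strand), Clec4a3 (chr6:122952515-122969875, plus), Clec4b1 (chr6:123049962-123071555, plus), Clec4a2 (chr6:123106428-123143999, plus), Clec4n (chr6:123229843-123247021, plus), Clec4d (chr6:123262111-123275265, plus) and Clec4e (chr6:123281789-123289870, minus). Clec4d and Clec4e are neighbours that face each other with their 3' ends, 6.52 kb apart. Clec4a2 shared runs of identical transcript sequence with Clec4a4 (163 bases) and Clec4b1 (82 bases). Reads that lie within those stretches fit both genes of a pair, so the counts of these genes are uncertain to that degree.

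The 250 bases before the RefSeq start (GRCm38.p6) are shown for Clec4e and Clec4d, which were higher in DB than in WT macrophages at both ages, and for Clec4b1, which was lower in DB macrophages at both ages. Capitals mark GAGGAA on either strand, the core letters bound by the myeloid factor PU.1. The windows are chr6:123289872-123290121 (minus strand) for Clec4e, chr6:123261857-123262106 (plus) for Clec4d and chr6:123049712-123049961 (plus) for Clec4b1.
Clec4e: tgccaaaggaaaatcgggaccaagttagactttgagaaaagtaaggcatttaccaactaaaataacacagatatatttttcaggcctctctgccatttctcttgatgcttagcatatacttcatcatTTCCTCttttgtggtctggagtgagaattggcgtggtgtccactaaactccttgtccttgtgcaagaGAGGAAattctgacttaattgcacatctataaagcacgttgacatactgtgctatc
Clec4d: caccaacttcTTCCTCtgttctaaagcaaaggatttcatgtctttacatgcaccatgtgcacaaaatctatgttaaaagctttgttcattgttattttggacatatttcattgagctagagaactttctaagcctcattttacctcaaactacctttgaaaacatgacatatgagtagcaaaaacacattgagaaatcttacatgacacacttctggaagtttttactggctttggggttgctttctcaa
Clec4b1: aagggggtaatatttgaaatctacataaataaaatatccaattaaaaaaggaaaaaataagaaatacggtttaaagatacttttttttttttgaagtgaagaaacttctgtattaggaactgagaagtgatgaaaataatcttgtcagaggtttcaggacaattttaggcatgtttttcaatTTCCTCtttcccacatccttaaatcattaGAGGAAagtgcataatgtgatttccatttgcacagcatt

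The core letters stood at 123 to 118 bases (minus strand) and 56 to 51 bases (plus) before the start of Clec4e, at 68 to 63 (minus) and 39 to 34 (plus) before that of Clec4b1, and at 240 to 235 (minus) before that of Clec4d. A start was given for 6 of the 7 genes, with 7 promoter windows in all, and 5 of these windows held the letters on at least 1 strand. Across 32817 mouse promoter windows of the same length, 23.3% held them. The AP-1 letters TGANTCA, found in 6.75% of windows, were in none of the 7. The NF-kB letters (GGG and CC parted by any 5 bases), found in 45.8%, occurred before Clec4a1 alone, as an overlapping pair of matches on opposite strands. A match is a run of letters, not a measured binding site.

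Barcodes were assigned to subsets by marker genes, none of them 1 of the 7 receptor genes. Levels are given in CPM, the UMIs of a gene scaled to 1000000 UMIs of all barcodes of a subset in a library. The gates gave 6266 macrophages with C1q genes (1627, 1696, 1563 and 1380), 629 monocyte-derived cells (145, 118, 301 and 65), 2194 type 2 conventional dendritic cells (cDC2) with Cd209a (574, 468, 943 and 209), 1762 further MHCII-high barcodes without Cd209a (430, 492, 672 and 168) and 402 neutrophils (118, 99, 131 and 54). Summed over 9 macrophage markers, macrophages held 18009, 16022, 14432 and 24404 CPM and cDC2 924, 1093, 757 and 983. Summed over 7 neutrophil markers, neutrophils held 131030.0, 103074, 95722 and 70296 CPM and macrophages 83.0, 83.7, 71.2 and 179. The neutrophil markers, and the C1q genes among the macrophage markers, also defined the gates. These sums therefore describe the gates and do not test them. The gate of MHCII-high barcodes without Cd209a was added after the top genes of the unassigned barcodes, members among them, were seen. Member levels in that subset are therefore not independent of how it was made.

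Clec4e, which senses mycobacterial and cell-death glycolipids, was highest in neutrophils in 3 libraries, with 989, 2597, 1329 and 1488 CPM. In monocyte-derived cells it stood at 236, 449.6, 428 and 1732, and in 21-week-DB this exceeded the neutrophil level with overlapping intervals. Macrophages held 72.7, 105, 169.7 and 375 and cDC2 39.7, 70.4, 84.5 and 1072 CPM. In each of the 3 non-neutrophil subsets the 21-week-DB library was the highest and 12-week-WT the lowest. The MHCII-high Cd209a-negative barcodes gave 106, 160.3, 236 and 625. Lymphoid barcodes, which should lack the receptor, gave 7.24, 9.35, 22.8 and 36.1 CPM, and their level was also higher in the 21-week libraries.

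Clec4d, the partner receptor that forms a complex with Clec4e, was highest in neutrophils in all 4 libraries, at 1070.2, 1309, 1155 and 718 CPM. The next subset was the monocyte-derived cells at 69.7, 231, 91.4 and 451, with intervals apart from those of neutrophils in every library. Macrophages held 53.2, 129, 53.5 and 237, so the 2 DB libraries were both above the 2 WT libraries. cDC2 held little, at 8.01, 18.9, 8.90 and 81.9 CPM, and lymphoid barcodes 2.81, 7.96, 6.24 and 6.39.

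Shares of positive barcodes did not always follow the levels. Clec4e in cDC2 stood at 70.4 CPM in 12-week-DB and 84.5 in 21-week-WT, with the larger share in 12-week-DB. Clec4d was detected in 26.4, 51.5, 30.5 and 70.9% of macrophages against 1.66, 3.08, 2.29 and 2.10% of lymphoid barcodes, whose median depths were 8682, 10081, 10276 and 8758.5 UMIs and 6154, 5643.5, 6540.5 and 5399.5 UMIs. After each barcode was thinned to 2000 UMIs, leaving out shallower barcodes, the shares were 8.45, 19.6, 9.13 and 33.8% of macrophages and 0.462, 1.05, 1.20 and 0.77% of lymphoid barcodes. Both DB libraries stayed above both WT libraries in macrophages at equal depth. Clec4e was detected in 20.2, 34.0, 34.2 and 44.1% of macrophages, or 6.91, 13.4, 15.2 and 24.2% after thinning, against 1.77, 1.05, 2.60 and 2.26% of thinned lymphoid barcodes. In cDC2, Clec4e-positive barcodes made up 17.6, 31.6, 25.1 and 74.6%, or 5.23, 9.87, 8.87 and 49.5% after thinning, so 21-week-DB stood apart from the other 3 libraries.

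Clec4n, the mannan receptor Dectin-2, had no fixed place among the subsets. Its highest level was in the MHCII-high Cd209a-negative barcodes of 12-week-WT (69.0 CPM), in neutrophils of 12-week-DB (168) and 21-week-WT (85.7), and in cDC2 of 21-week-DB (124). In each library the interval was apart from that of the next subset. Macrophages held 56.5, 22.4, 36.9 and 24.0 and cDC2 37.1, 33.3, 26.8 and 124 CPM.

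Clec4b1, the activating DCAR, was a gene of the MHCII-high barcodes. cDC2 held 148, 184, 98.3 and 158 CPM and the MHCII-high Cd209a-negative barcodes 147, 186, 93.4 and 96.1. The pair had overlapping intervals in 3 libraries and differed in 21-week-DB, where cDC2 was higher. Macrophages held 40.1, 31.9, 30.3 and 7.04 CPM, with 21-week-DB below the level of the other 3 libraries, and Clec4b1 was detected in 17.4, 15.6, 15.8 and 3.70% of them.

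The 3 genes of the DCIR group were spread more evenly. Clec4a1 was about as high in macrophages (277, 292, 151 and 178 CPM) as in monocyte-derived cells (267, 279.8, 195 and 152), with overlapping intervals in both 12-week libraries. Clec4a2, the inhibitory receptor, was highest in the MHCII-high Cd209a-negative barcodes (456, 439, 275 and 369.9) and stood at 215, 220.4, 175 and 141 in macrophages. In 21-week-WT its interval overlapped that of the monocyte-derived cells. Clec4a3 was highest in monocyte-derived cells in all 4 libraries (301, 342, 258 and 247), apart from the next subset each time. Lymphoid barcodes gave between 3.66 and 19.2 CPM of these 3 genes.

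**Figure D1:**
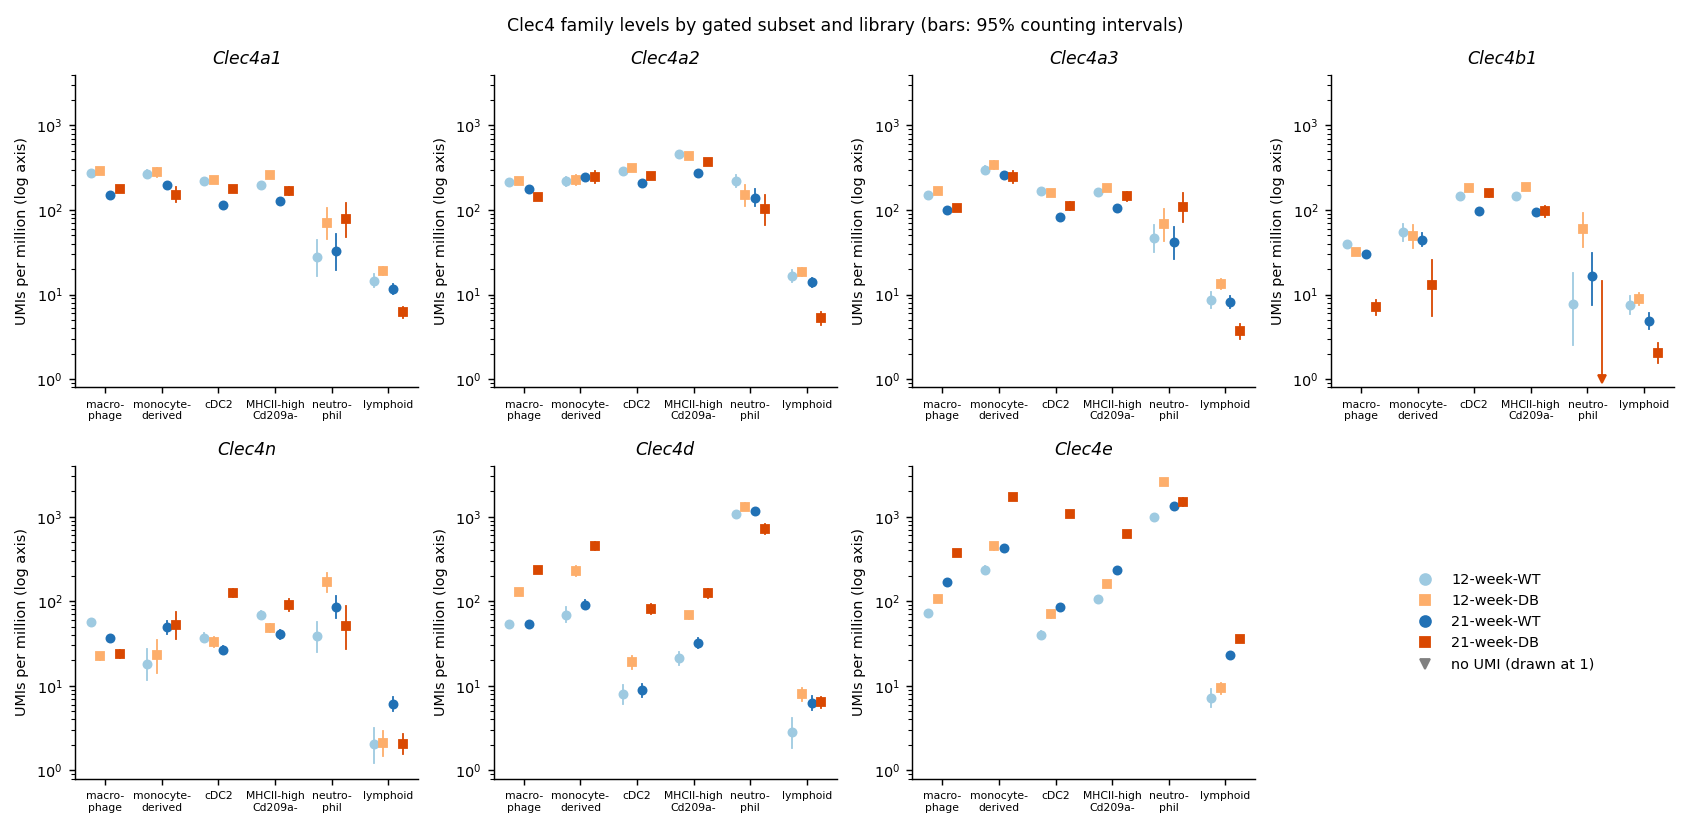
Level of each of the 7 genes (CPM, log axis) in 6 gated subsets, with 1 point per library and 95% exact Poisson intervals. Clec4d and Clec4e sit highest in neutrophils except for Clec4e in 21-week-DB, where the monocyte-derived cells reach 1732 CPM, while Clec4a1, Clec4a2 and Clec4a3 vary less between the macrophage, monocyte-derived and dendritic subsets.

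In macrophages, monocyte-derived cells and MHCII-high Cd209a-negative barcodes, the DB library held more Clec4d than the WT library at both ages. In macrophages at 12 weeks its level was 2.43-fold that of WT, a log2 ratio of 1.28 (95% interval 1.17 to 1.40), and at 21 weeks 4.43-fold, a log2 ratio of 2.15 (2.04 to 2.25). Clec4e in macrophages was 1.45-fold that of WT at 12 weeks, a log2 ratio of 0.53 (0.43 to 0.64), and 2.21-fold at 21 weeks, 1.14 (1.08 to 1.21). Clec4d was thus at least 2-fold higher in DB at both ages and Clec4e at 21 weeks.

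Clec4n went the other way in macrophages at 12 weeks, with a DB over WT log2 ratio of -1.33 (-1.50 to -1.16), from 56.5 to 22.4 CPM. Clec4b1 was lower in DB macrophages at 21 weeks, 7.04 against 30.3 CPM and a log2 ratio of -2.11 (-2.44 to -1.78), although both levels were under the 50 CPM asked of the higher library for a call. At 12 weeks its ratio was only -0.33 (-0.50 to -0.17), with 31.9 against 40.1 CPM, also under that limit. The DCIR group differed little, with log2 ratios of 0.08, 0.03 and 0.17 for Clec4a1, Clec4a2 and Clec4a3 at 12 weeks and 0.24, -0.31 and 0.07 at 21 weeks.

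Of the members with 50 CPM or more in the higher library, 1 of 6 was at least 2-fold higher and 1 lower at 12 weeks, where 0.373% and 1.21% of 3485 macrophage genes were. At 21 weeks 2 of 5 were at least 2-fold higher and 0 lower, beside 1.89% and 2.4% of 3338 genes. The call of Clec4e at 21 weeks was lost under 3 alternatives. Its log2 ratio was 0.96 without barcodes over 5% mitochondrial UMIs, 0.92 with barcodes assigned by their highest marker score and 0.62 without the macrophages high in Ccl2, Cxcl1 and Tnf.

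Neutrophil RNA outside neutrophils was followed through S100a8, a gene abundant in neutrophils. S100a8 was also a marker of the neutrophil gate, so the gate itself limited its level in the other subsets. In macrophages S100a8 was 0.0701, 0.158, 0.0936 and 0.616% of its neutrophil level, highest in 21-week-DB. At that share, neutrophil RNA would hold 0.75, 2.07, 1.08 and 4.42 CPM of Clec4d and 0.693, 4.10, 1.24 and 9.16 of Clec4e, against measured levels from 53.2 to 237 and from 72.7 to 375. In 21-week-DB the share was 1.94% in monocyte-derived cells, equal to 14.0 CPM of Clec4d and 28.9 of Clec4e. The part of neutrophil RNA in the levels of both genes was not tested.

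At 21 weeks the DB library also held more Clec4e in the dendritic and monocyte-derived subsets. The DB over WT log2 ratio of Clec4e was 3.66 (3.57 to 3.76) in cDC2, a 12.7-fold difference, 2.02 (1.90 to 2.14) in monocyte-derived cells and 1.41 (1.30 to 1.52) in MHCII-high Cd209a-negative barcodes. In neutrophils it was 0.16 (-0.02 to 0.34), an interval that includes 0. Clec4d in the same subsets gave 3.20 (2.88 to 3.54), 2.30 (2.05 to 2.55) and 1.95 (1.68 to 2.22), and neutrophils gave -0.69 (-0.93 to -0.45). For both genes each of these ratios exceeded that of neutrophils, a difference between subsets that was not tested.

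Clec4n was higher in DB cDC2 at 21 weeks (2.22, 2.00 to 2.44) and in the MHCII-high Cd209a-negative barcodes (1.16, 0.88 to 1.44), while in macrophages the ratio was -0.62 (-0.82 to -0.42). At least 2-fold higher in DB at 21 weeks were 3 of 7 tested members in cDC2 (4.19% of all genes), 3 of 7 in MHCII-high Cd209a-negative barcodes (3.29%), 2 of 6 in monocyte-derived cells (4.58%) and 2 of 6 in neutrophils (14.4%). No tested member was 2-fold lower in these 4 subsets, where 1.68, 1.5, 5.08 and 14.6% of genes were. The 2 higher in neutrophils were Clec4a1 and Clec4a3, at 78.5 against 32.8 and 109.9 against 41.9 CPM over few UMIs. Clec4b1, under the 50 CPM limit, was lower in DB monocyte-derived cells, at 13.1 against 44.5 CPM (-1.77, -3.01 to -0.74). In neutrophils it had no UMI in 21-week-DB, where 3 counts would be 11.8 CPM, against 16.4 CPM in 21-week-WT.

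At 12 weeks the DB library held more Clec4d in monocyte-derived cells (1.73, 1.37 to 2.09) and MHCII-high Cd209a-negative barcodes (1.68, 1.38 to 1.99), and neutrophils differed less (0.29, 0.11 to 0.46). Without the barcodes shared between libraries the neutrophil ratio was -0.04, with 1323 against 1358 CPM of Clec4d. Clec4e gave 0.93 (0.72 to 1.15) in monocyte-derived cells, 0.83 (0.61 to 1.04) in cDC2 and 1.39 (1.24 to 1.54) in neutrophils, where it was largest. Clec4n in neutrophils gave 2.11 (1.41 to 2.85), over 57 against 25 UMIs. At least 2-fold higher were 1 of 6 tested members in monocyte-derived cells (2.75% of genes), 1 of 7 in MHCII-high Cd209a-negative barcodes (0.398%), 0 of 5 in cDC2 (0.162%) and 4 of 7 in neutrophils (Clec4a1, Clec4b1, Clec4e and Clec4n, with 8.25% of genes). The Clec4b1 call rested on 20 UMIs in 2 of 99 neutrophil barcodes of 12-week-DB. That of Clec4a1 (1.34, 0.40 to 2.31) rested on 24 against 18 UMIs, and its ratio was 1.01 without the barcodes shared between libraries. No member was 2-fold lower, where 1.4, 0.856, 0.422 and 8.8% of genes were. In the 78 and 40 type 1 conventional dendritic cells (cDC1) of 12-week-WT and 12-week-DB, Clec4a1 (1.26, 0.61 to 1.93) and Clec4a2 (1.46, 0.94 to 1.99) were higher in DB, 2 of 3 tested members, with 2.2% of genes higher and 1.39% lower. Among these 5 subsets, neutrophils had the fewest UMIs per barcode, with medians of 2973, 2495, 3034 and 3371, and the largest share of genes past 2-fold.

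**Figure D2:**
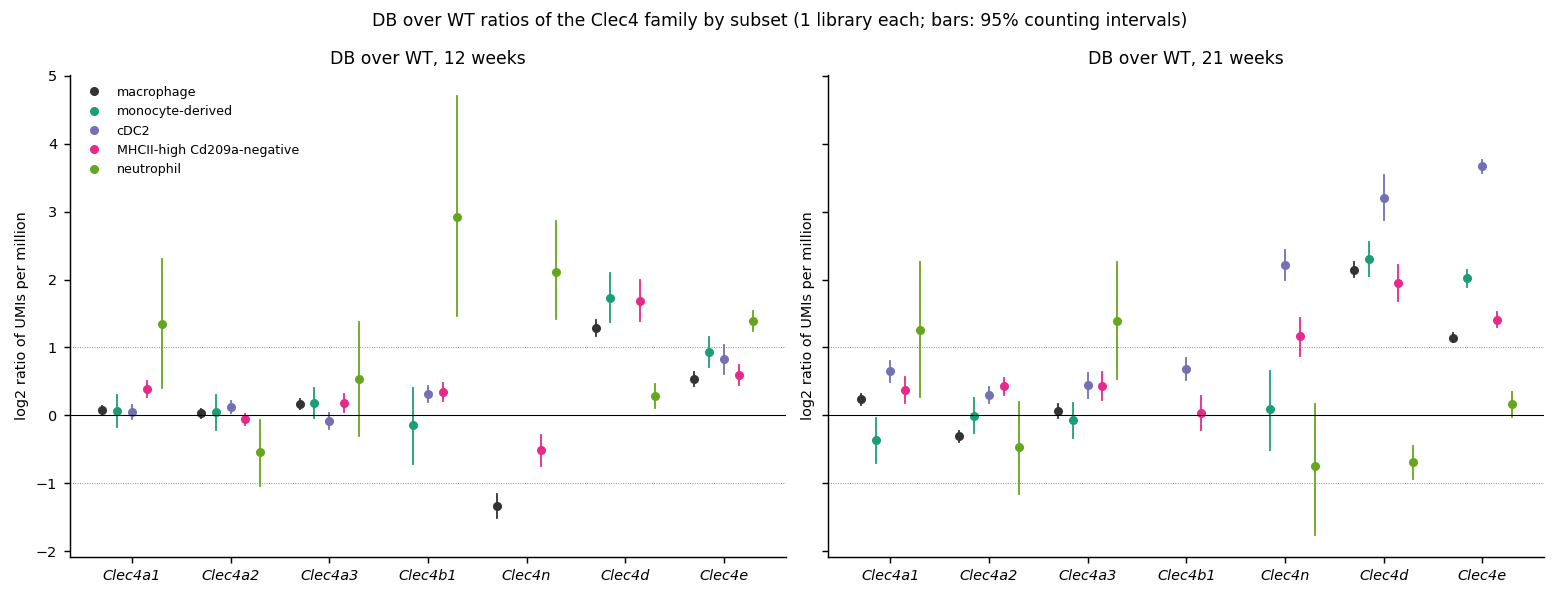
DB over WT log2 ratio of each gene in 5 subsets at 12 weeks (left) and 21 weeks (right), with 95% counting intervals and dotted lines at 2-fold. Values are drawn only where the higher library had 50 CPM or more, so Clec4b1 in macrophages is not shown. At 21 weeks Clec4d and Clec4e lie above 1 in every subset but neutrophils, led by Clec4e in cDC2 at 3.66.

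Between 12 and 21 weeks, Clec4e was higher in the older macrophages of both genotypes, by a log2 ratio of 1.22 (1.12 to 1.32) in WT and 1.83 (1.76 to 1.91) in DB. Clec4d was level with age in WT within counting error (0.01, -0.13 to 0.14) and was higher in DB (0.87, 0.79 to 0.95), short of 2-fold. Clec4a1 was lower at 21 weeks in both, with log2 ratios of -0.88 (-0.95 to -0.81) and -0.72 (-0.79 to -0.65), as was Clec4a3, with -0.58 (-0.67 to -0.50) and -0.68 (-0.77 to -0.59). Clec4a2 was lower too, with -0.30 (-0.37 to -0.23) in WT and -0.64 (-0.72 to -0.56) in DB. Clec4n gave -0.61 (-0.76 to -0.47) in WT and, under the 50 CPM limit, 0.10 (-0.12 to 0.31) in DB. Of the tested members 1 of 6 in WT and 1 of 5 in DB, Clec4e each time, were at least 2-fold higher, and 0 were lower. The shares of all macrophage genes were 0.647% higher and 0.706% lower in WT, and 2.46% and 2.17% in DB. Clec4b1, not tested under the 50 CPM limit, was lower with age in DB, at 7.04 against 31.9 CPM, a log2 ratio of -2.18 (-2.51 to -1.86). In WT it gave -0.40 (-0.57 to -0.24).

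In cDC2 the age ratio of Clec4e was 1.09 (0.91 to 1.28) in WT and 3.93 (3.78 to 4.08) in DB, a 15.2-fold difference in DB. Clec4d and Clec4n were also at least 2-fold higher in older DB cDC2 (2.12, 1.78 to 2.45, and 1.90, 1.65 to 2.16), so 3 of 7 tested members were, where 4.85% of genes were, and none was lower (3.59%). In WT cDC2, Clec4e was 1 of 5 tested members at least 2-fold higher (0.502% of genes), and Clec4a3 was lower, at -1.04 (-1.16 to -0.92), 1 of 5 where 1.3% of genes were lower. In monocyte-derived cells Clec4e gave 0.86 (0.68 to 1.04) in WT and 1.95 (1.78 to 2.11) in DB. Neutrophils gave 0.43 (0.27 to 0.58) in WT and -0.80 (-0.98 to -0.63) in DB. The difference between subsets was not tested.

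In older WT barcodes, Clec4e was also at least 2-fold higher in the MHCII-high Cd209a-negative subset (1.15, 1.02 to 1.29), 1 of 6 tested members beside 1.16% of genes higher and 3.17% lower, and Clec4n in neutrophils (1.14, 0.41 to 1.90), 1 of 4 beside 6.39% higher and 8.32% lower. Without the barcodes shared between libraries the ratio of Clec4n was 0.92 and the call was lost. No tested member reached 2-fold in WT monocyte-derived cells (0 of 6, with 1.11% of genes higher and 1.94% lower) or WT cDC1 (0 of 1, with 0.471% and 1.45%). Under the 50 CPM limit, Clec4n in WT monocyte-derived cells gave 1.42 (0.80 to 2.10), with 49.1 against 18.3 CPM. In WT cDC1, also under that limit, Clec4e gave 3.07 (1.43 to 5.40) and Clec4a1 -1.01 (-1.75 to -0.27). In older DB barcodes, Clec4e and Clec4n (1.19, 0.35 to 2.06) were 2 of 6 tested members higher in monocyte-derived cells, beside 3.23% of genes higher and 7.89% lower, and Clec4e (1.96, 1.84 to 2.09) was 1 of 7 in the MHCII-high Cd209a-negative subset, beside 3.87% and 2.12%. DB neutrophils went the other way, with 2 of 7 tested members lower. They were Clec4n, at -1.72 (-2.72 to -0.84), and Clec4b1, without a UMI at 21 weeks (3 counts would be 11.8 CPM) against 59.1 CPM from the 2 barcodes named above, beside 16.7% of genes higher and 17.8% lower.

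Genes induced by enzymatic digestion of tissue also differed between the libraries. Summed over 12 such genes, a list added after the data were seen, macrophages held 7349.5, 4457, 9050.4 and 8748 CPM, cDC2 12406, 9200.1, 13186 and 14806 and monocyte-derived cells 17364, 12385, 17833 and 19323. The 12-week-DB library was lowest in each. Their part in the levels of Clec4e was not tested.

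Macrophages were then grouped by their own Lyve1 UMIs and by H2-Ab1, an MHC class II gene, with the limits of the study's methods but on UMIs without the removal of ambient RNA that the study applied. Clec4e was lowest in Lyve1+ MHCII-low macrophages, at 31.1, 48.1, 62.6 and 188 CPM, and highest in Lyve1- MHCII-high ones in 3 libraries, at 148, 245, 368 and 858. Lyve1- MHCII-low macrophages held 181, 124, 281 and 851 and Lyve1+ MHCII-high ones 74.5, 96.8, 111 and 791. At 21 weeks the DB library was higher in all 4 groups, with log2 ratios from 1.22 (1.11 to 1.33) in Lyve1- MHCII-high to 2.84 (2.53 to 3.14) in Lyve1+ MHCII-high. The Lyve1+ MHCII-high value of 21-week-DB rested on only 15 barcodes, with 119 UMIs of Clec4e. At 12 weeks it was higher in 3 groups and lower in Lyve1- MHCII-low macrophages, at -0.54 (-0.79 to -0.29).

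Clec4d was highest in Lyve1- MHCII-low macrophages in each library, at 105, 179.6, 137 and 344 CPM, and stood at 47.4, 138, 47.0 and 212 in Lyve1+ MHCII-low macrophages. The DB library was higher in all 4 groups at both ages, with log2 ratios from 0.65 (0.39 to 0.91) to 1.58 (1.19 to 1.98) at 12 weeks and from 1.33 (1.02 to 1.65) to 2.20 (1.52 to 2.82) at 21 weeks. The 2.20 was that of the Lyve1+ MHCII-high group, over 25 UMIs in 15 barcodes of 21-week-DB. Clec4n at 12 weeks was lower in DB in all 4 groups, from -2.04 (-2.58 to -1.53) to -1.13 (-1.43 to -0.84).

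The makeup of the macrophages moved with the libraries. MHCII-high macrophages numbered 560, 608, 788 and 157 and MHCII-low ones 1067, 1088, 775 and 1223. With the 4 groups held at the same weights in every library, the DB over WT log2 ratio at 21 weeks was 2.00 for Clec4d and 1.66 for Clec4e, and it went from -2.11 to -0.02 for Clec4b1, from -0.62 to 0.63 for Clec4n and from -0.31 to 0.20 for Clec4a2. The weighted values include the Lyve1+ MHCII-high group, which had only 15 barcodes in 21-week-DB. Clec4n was at 2.17 (1.38 to 2.88) in that group, over 19 UMIs in 21-week-DB. It was at -0.30, 0.12 and -1.01 in the Lyve1+ MHCII-low, Lyve1- MHCII-high and Lyve1- MHCII-low groups. How far the small group carried the weighted values was not tested. Within the groups, Clec4b1 was lower in 21-week-DB in 3 of 4, with log2 ratios of -1.13 (-2.23 to -0.10) in Lyve1+ MHCII-low, -0.64 (-1.06 to -0.25) in Lyve1- MHCII-high and -1.66 (-3.27 to -0.04) in Lyve1- MHCII-low macrophages. It was higher in the Lyve1+ MHCII-high group, at 1.04 (0.00 to 1.92), over 11 UMIs in 15 barcodes of 21-week-DB.

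Macrophages were also divided by the summed UMIs of Ccl2, Cxcl1 and Tnf, with the high group at 10 UMIs or more per 10000. The high group made up 16.7, 8.84, 20.4 and 24.3% of macrophages. Clec4e stood at 212, 520.1, 575 and 1279 CPM in the high group and at 46.6, 71.7, 70.4 and 108 in the low group, so the groups did not overlap. In the low group the DB over WT log2 ratio of Clec4e was 0.62 (0.48 to 0.76) at 12 weeks and 0.62 (0.50 to 0.75) at 21 weeks, and the age ratio 0.59 in WT and 0.60 in DB, so none reached 2-fold there. In the high group its DB over WT ratio was 1.29 (1.13 to 1.46) at 12 weeks and 1.15 (1.07 to 1.23) at 21 weeks. Clec4d stood at 62.1, 164, 90.0 and 319 in the high group and 51.5, 127, 44.5 and 212 in the low group. Its DB over WT ratio in the low group was 1.30 (1.17 to 1.42) at 12 weeks and 2.25 (2.12 to 2.38) at 21 weeks. Leaving out the high group was an alternative added after the data were seen.

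**Figure D3:**
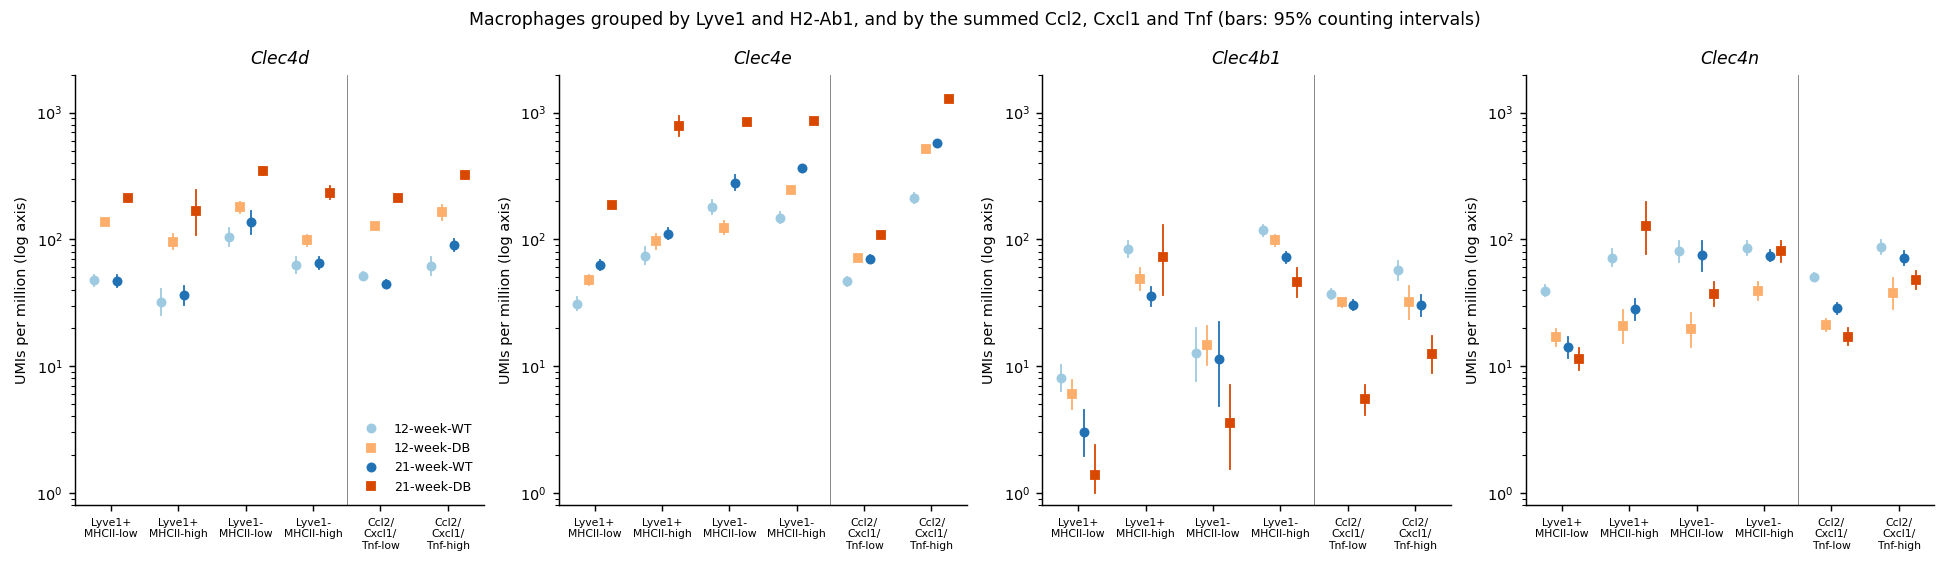
Clec4d, Clec4e, Clec4b1 and Clec4n (CPM, log axis) in macrophages grouped by Lyve1 and H2-Ab1 and, right of the line, by the summed Ccl2, Cxcl1 and Tnf, with 1 point per library and 95% exact Poisson intervals. Clec4e in the high group spans 212 to 1279 CPM, above all 4 libraries of the low group (46.6 to 108), and Clec4b1 follows the MHCII-high groups.

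The split of macrophages within each library gave the only comparisons with replication, over 4 libraries, and was tested with edgeR's quasi-likelihood test across all genes, with the library as a block and Benjamini-Hochberg adjustment. The block takes out differences in level between the libraries. The spread is therefore that of the within-library difference over 4 libraries that differ in age and genotype. All 7 measured members were lower in Lyve1+ than in Lyve1- macrophages, where 13.1% of 11759 genes were lower. Clec4e stood at 39.9, 57.2, 78.3 and 198 CPM in Lyve1+ and 159, 201, 357 and 854 in Lyve1- macrophages, and Clec4b1 at 23.5, 13.9, 13.5 and 2.52 and 83.7, 67.6, 64.7 and 19.3. Both were lower in Lyve1+ macrophages of 4 of 4 libraries, with a log2 difference of -2.12 ± 0.08 (SE, adjusted p = 4.19e-06) for Clec4e and -2.29 ± 0.13 (SE, adjusted p = 2.39e-05) for Clec4b1.

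The other members moved in the same direction by less. By edgeR the log2 difference was -1.49 ± 0.21 (SE, adjusted p = 0.00124) for Clec4n, -1.46 ± 0.13 (SE, adjusted p = 0.000118) for Clec4a2, -0.95 ± 0.10 (SE, adjusted p = 0.000352) for Clec4a3 and -0.71 ± 0.12 (SE, adjusted p = 0.00256) for Clec4a1, each lower in 4 of 4 libraries. Clec4d gave -0.58 ± 0.13 (SE, adjusted p = 0.0101) and was lower in 3 of 4 libraries, at 44.4, 130.2, 43.6 and 212 CPM in Lyve1+ and 76.4, 128, 73.8 and 304 in Lyve1- macrophages.

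Between MHCII-high and MHCII-low macrophages, 6 of 7 members were higher in MHCII-high macrophages, where 14.9% of 11873 genes were. Clec4b1 differed most, at 104, 80.5, 56.8 and 49.2 CPM in MHCII-high and 8.70, 7.65, 3.72 and 1.81 in MHCII-low macrophages, a log2 difference of 3.83 ± 0.16 (SE, adjusted p = 2.15e-07) by edgeR. Clec4e stood at 117, 192, 259 and 855 and 51.1, 62.1, 80.6 and 315, a difference of 1.58 ± 0.09 (SE, adjusted p = 1.02e-06). Both genes were higher in MHCII-high macrophages of 4 of 4 libraries. Clec4a2 gave 1.55 ± 0.08 (SE, adjusted p = 9.93e-07), Clec4n 1.43 ± 0.20 (SE, adjusted p = 0.000479), Clec4a3 1.01 ± 0.08 (SE, adjusted p = 1.31e-05) and Clec4a1 0.71 ± 0.06 (SE, adjusted p = 2.31e-05). Clec4d did not pass the test, with -0.12 ± 0.09 (SE, adjusted p = 0.355).

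Both splits used the barcodes' own UMIs, so depth differed between the sides, with Lyve1+ medians of 9432, 10834.5, 11179.5 and 9480 UMIs against 7508.5, 8899.5, 8817 and 7408. Thinned to 2000 UMIs a barcode, all members kept the same call and direction in both splits. The splits share barcodes and are not independent of each other. Without the library block the Lyve1 call was lost by edgeR for Clec4a1 (adjusted p = 0.155), Clec4d (0.726), Clec4e (0.0852) and Clec4n (0.0676), and the MHCII call for Clec4a1 (0.120) and Clec4e (0.275).

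**Figure D4:**
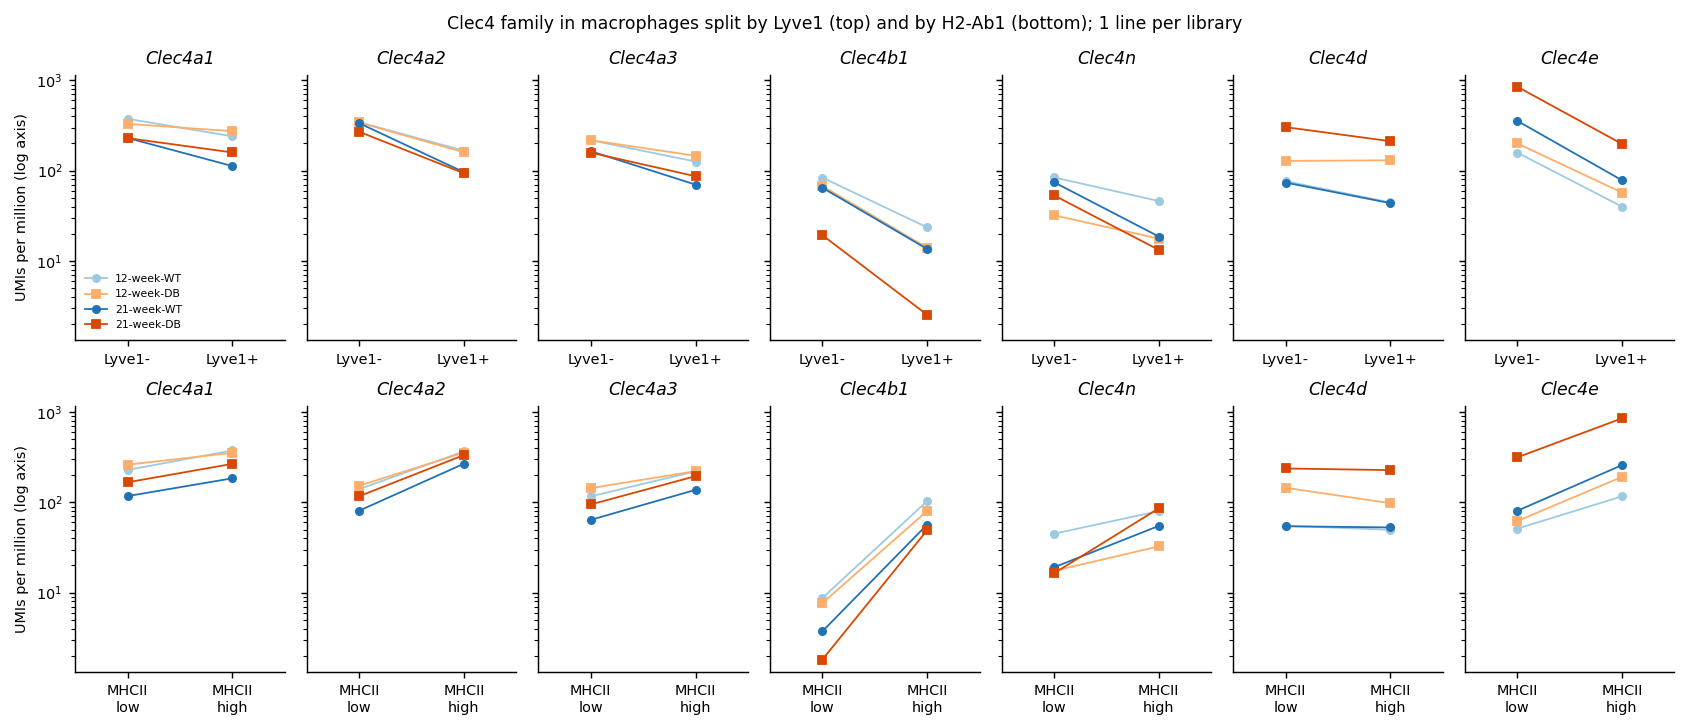
Level of each gene (CPM, log axis) in Lyve1- and Lyve1+ macrophages (top) and in MHCII-low and MHCII-high macrophages (bottom), with 1 line per library. The lines of Clec4e fall from Lyve1- to Lyve1+ in all 4 libraries and those of Clec4b1 rise from MHCII-low to MHCII-high, while the MHCII lines of Clec4d are flat or fall.

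Genes of the pathway below the receptors were followed in the same splits. Of 22 listed signalling partners, 8 were lower in Lyve1+ macrophages, where 13.1% of all genes were. They were led by the scaffold protease Malt1 (-1.60 on the log2 scale), the Src-family kinase Fgr (-1.11) and the NF-kB subunit Rel (-0.96). Syk was among them (-0.33). Of the same 22, 9 were higher in MHCII-high macrophages, where 14.9% of all genes were, again led by Malt1 (2.06), Fgr (1.41) and Rel (1.08). Fcer1g gave 0.04 ± 0.06 (SE, adjusted p = 0.73) by edgeR in the Lyve1 split and -0.10 ± 0.06 (SE, adjusted p = 0.257) in the MHCII split, and Card9 and Ptpn6 passed in neither. The list medians were -0.12 and 0.16, against -1.46 and 1.43 for the members and 0.01 and -0.01 for all genes.

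Of the 14 listed genes that such receptors can induce, 13 were tested. All 13 were lower in Lyve1+ macrophages (13.1% of all genes) and 12 were higher in MHCII-high ones (14.9%). They included Il1b (-2.70 and 3.34 on the log2 scale), Ptgs2, the prostaglandin synthase (-2.62 and 3.05) and the chemokine Cxcl2 (-2.05 and 1.61). Related lectins did not follow one direction. Clec5a and Olr1 were higher in Lyve1+ (0.41 and 0.83) and lower in MHCII-high macrophages (-0.56 and -1.18), and Clec12a was lower in the first and higher in the second (-0.79 and 0.35), out of 5 and 6 tested.

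Between the libraries, no signalling partner reached 2-fold in macrophages in any of the 4 contrasts, with 16, 14, 14 and 16 tested for DB over WT at 12 weeks and at 21 weeks and for age in WT and in DB. Of all macrophage genes, 0.373 to 2.46% did, counted separately for each contrast and each direction. Fcer1g, the shared adaptor, stood at 1213, 1243, 1204 and 1319 CPM, Syk at 143, 135, 128 and 92.0 and Ptpn6 at 143, 109, 96.7 and 85.7. Of the induced genes, 1 of 6 was lower at 12 weeks in DB (Ccl3, -1.04), beside 1.21% of all genes. At 21 weeks 2 of 9 were higher (Cxcl2, 1.10, and Ccl3, 1.19), beside 1.89%. With age 5 of 9 were higher in WT (0.647% of all genes) and 8 of 8 in DB (2.46%), including Il1b at 2.52 and 2.93. Among related lectins, Olr1 was lower in DB at 12 weeks (-1.52, 1 of 5, beside 1.21%) and higher with age in DB (1.73, 1 of 4, beside 2.46%). Clec10a was higher in DB at 21 weeks (1.54, 1 of 4, beside 1.89%) and lower with age in WT (-1.71, 1 of 5, beside 0.706%).

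Across 35 sums of UMIs by library and subset, Clec4d and Clec4e had a Pearson correlation of 0.93 of log2 levels, and 0.89 over the 23 myeloid sums. Over the same sums the genes most like Clec4d were Tnfaip2 (0.94), Msrb1 (0.93) and Clec4e, and those most like Clec4e were Tnfaip2, Cd14 and Ccl3 (each 0.95). Clec4n was most like Ptafr (0.94), Cd14 and Gda. Clec4a1 was most like Stom (0.95), Gpx1 and Ptpro, and Clec4a2 Cfp (0.95), Stom and Clec4a1. Clec4a3 was most like Ccl9 (0.95), Ticam2 and Fn1, and Clec4b1 Hotairm1 (0.91), Sdc3 and Rtl5. The sums share libraries, depth and subset, and 6322 genes were compared. Clec4b1 and Clec4d had a correlation of 0.24 over the 35 sums and -0.59 over the 23 myeloid sums. The 2 genes were highest in different subsets, whose part in these correlations was not tested.

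**Figure D5:**
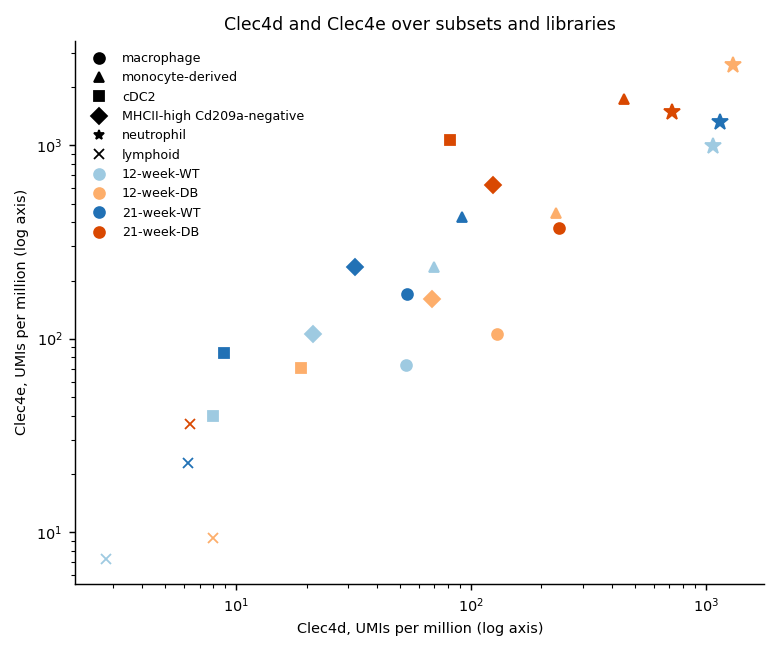
Clec4d against Clec4e (CPM, log axes) in 6 subsets of 4 libraries, where shape marks the subset and colour the library. The neutrophil sums lie at the top right, from 718 to 1309 CPM of Clec4d and from 989 to 2597 of Clec4e, and the 21-week-DB cDC2 sum lies above the others for its Clec4d level, at 81.9 on the horizontal and 1072 on the vertical axis.

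In single barcodes thinned to 2000 UMIs, Clec4e was detected in 15.9, 17.4, 33.1 and 29.4% of Clec4d-positive macrophages and in 6.08, 12.5, 13.5 and 21.5% of Clec4d-negative ones. The share was higher among Clec4d-positive macrophages in each library. In 21-week-DB cDC2, 16 of 20 Clec4d-positive barcodes held Clec4e, 80.0% against 46.3% of the negative ones. At least 2 of the 7 genes were detected in 72.4, 73.2, 73.8 and 65.0% of thinned neutrophils, 40.2, 45.0, 30.4 and 41.0% of macrophages and 42.3, 44.6, 26.2 and 58.7% of cDC2.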

How the data were processed

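The deposited files hold UMI counts per gene and cell barcode that the authors made with Cell Ranger on mm10, without normalization. Per the labels and the headers of the 12-week files the version was 5.0.0, and per the file headers of the 21-week files it was 6.0.0. A barcode was kept from 200 genes upward and up to a mitochondrial share of 10%. Barcodes were assigned to subsets by marker UMIs, with limits set after the markers' distributions were seen, and the MHCII-high Cd209a-negative gate was added after the top genes of the unassigned barcodes, members among them, were seen. Barcodes past more than 1 lineage gate, or past 1 and the C1q gate, were left out as mixed, which also served against doublets. The lineage gates were those of mast cells/basophils, B cells, neutrophils, stromal cells and lymphoid cells. A barcode past the C1q gate alone counted as a macrophage whatever its MHCII or Cd209a UMIs. This rule therefore did not remove doublets of macrophages and dendritic cells. Scrublet (scanpy 1.11.5) was an alternative.

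Counts were summed by library and subset and scaled to 1000000 UMIs (CPM), with exact Poisson intervals for levels and exact binomial intervals for ratios and shares (scipy 1.17.1, 95%). A member was called at 2-fold or more with 50 CPM in the higher library, without a test, since each condition had 1 library. A gene of which no UMI was found is bounded by 3 counts. For the macrophage splits, Lyve1+ meant 1 UMI or more and MHCII-high a log-normalized H2-Ab1 of 2 or more, without removal of ambient RNA. Sums per library and side were tested with edgeR 4.0.16 (R 4.3.3, quasi-likelihood, Benjamini-Hochberg, threshold 0.05) with library as the block, so that the sides of a library form a pair. DESeq2 1.42.0 was an alternative. On simulated data, the Lyve1 step recovered 82% of 2-fold and 93% of 4-fold changes over 11618 genes with 8 false calls, and the MHCII step 86% and 98% over 11721 genes with 8.

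The members and gene lists were chosen with earlier results of these data known. All measured members were named in each macrophage comparison, with the 3 genes most like each by correlation of log2(CPM + 1). Of each list, the genes with the largest changes were named, and Fcer1g, Syk, Card9 and Ptpn6. The list of digestion genes and the alternatives without shared barcodes or without Ccl2/Cxcl1/Tnf-high macrophages were chosen after seeing the data. Coordinates are from GENCODE M21, and promoters from RefSeq.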

Additional observations from a re-analysis of the deposited data

Results flagged for a closer look

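For 16 genes and subsets the DB over WT ratio had opposite signs at the 2 ages or in 2 subsets, with counting intervals on either side of 0. With 1 library per condition these differences were not tested. How often all genes did so was not counted, so the number is not read as a trait of these genes. All values are on the log2 scale.

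Among the receptors, Clec4n in MHCII-high Cd209a-negative barcodes went from -0.51 at 12 weeks to 1.16 at 21 weeks, a difference of 1.67. Clec4d in neutrophils went from 0.29 to -0.69, a difference of -0.98, but without the barcodes shared between libraries it was -0.04 at 12 weeks and -0.67 at 21 weeks, so the signs were no longer opposite. At 12 weeks Clec4n was at 2.11 in neutrophils and -1.33 in macrophages, 3.45 apart. At 21 weeks Clec4d was at -0.69 in neutrophils and 2.15 in macrophages, a difference of -2.83. At the same age Clec4a1 was at -0.36 in monocyte-derived cells and 0.24 in macrophages (-0.60), and Clec4a2 was at -0.31 in macrophages, at 0.30 in cDC2 (0.61 higher) and at 0.43 in MHCII-high Cd209a-negative barcodes (0.74 higher).

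Of the 14 listed genes that such receptors can induce, 6 were lower in DB macrophages at 12 weeks and higher at 21 weeks. With the 50 CPM limit, 6 of the 14 were tested at 12 weeks and 9 at 21 weeks. The share of all macrophage genes with such a change of sign was not counted. The change was 2.23 for Ccl3 (-1.04 to 1.19), 1.50 for Cxcl1 (-0.70 to 0.80), 1.50 for Cxcl2 (-0.40 to 1.10), 1.48 for Ccl4 (-0.68 to 0.80), 1.01 for Tnf (-0.58 to 0.44) and 0.41 for Il1b (-0.15 to 0.26). Of the 12 related lectins, Clec10a changed by 1.91 (-0.37 to 1.54), Olr1 by 1.74 (-1.52 to 0.23) and Clec5a by 0.68 (-0.18 to 0.49). Clec4e, by contrast, was higher in DB macrophages at both ages. The summed level of the digestion genes in macrophages, 7350, 4457, 9050 and 8748 CPM in 12-week-WT, then 12-week-DB, then 21-week-WT, then 21-week-DB, was lower in DB at 12 weeks and about level at 21 weeks. Its part in these values was not tested.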

How the results depend on the processing

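Of 252 member ratios between libraries under the alternatives, 190 moved by less than their interval. The count of members at least 2-fold higher in DB at 21 weeks was 1 instead of 2, Clec4e being lost, with at most 5% mitochondrial UMIs (log2 ratio 0.96), with barcodes assigned by marker score (0.92) and without Ccl2/Cxcl1/Tnf-high macrophages (0.62). Without the latter the age counts were 0 instead of 1 in WT (Clec4e 0.59) and 0 instead of 1 in DB (0.60). TMM scaling moved the median of all genes from -0.13 to 0.07 for age in WT and from 0.03 to -0.09 for DB over WT at 21 weeks, with the calls of the members as before. Thinning to 2000 UMIs took the median share of macrophages with a UMI of a member from 47.4% to 18.3%. The subset with the highest level stayed for 19 of 28 members and libraries with the marker score and for 25 to 28 under the others.

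In the Lyve1 split, 1021 genes were higher with DESeq2, and 742 higher and 756 lower after thinning. In the MHCII split, 873 were higher and 830 lower after thinning. Without the library as a replicate block, 392 were higher and 305 lower in Lyve1+ macrophages and 469 higher and 465 lower in MHCII-high ones, and the lost member calls are named above. Leaving out a library gave 967 (without 12-week-WT) to 1225 higher and 1171 to 1445 lower genes for Lyve1, and 1256 to 1885 higher and 1111 (without 21-week-WT) to 1737 lower for MHCII, and lost no call of a member. Clec4d in the MHCII split, not called, ranged from -0.17 (without 21-week-WT) to 0.000998 (without 12-week-DB) when a library was left out, and was 0.0237 with the marker score. Of 175 member values in the splits, 167 kept direction and call. Subsets under 30 barcodes a library and neutrophils at 2495 to 3371 UMIs a barcode limit what low genes can show.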

Other observations

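Clec4e was also high in smaller subsets of the 21-week-DB library. Langerhans-like barcodes, which carry Cd207, numbered 13 and 29 in WT and DB at 12 weeks and 14 and 24 at 21 weeks, and in the same order they held 5.49, 14.0, 83.5 and 1187 CPM of Clec4e. In 21-week-DB this rested on 398 UMIs. The same barcodes held 5.49, 16.8, 13.9 and 95.4 CPM of Clec4d and 32.9, 36.4, 37.1 and 113 of Clec4n, over 1 to 38 UMIs. Clec4a1, at 115, 118, 83.5 and 104 CPM, differed less.

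The cDC1, marked by Xcr1, numbered 78, 40, 107 and 2. In the first 3 libraries they held 2.69, 16.9 and 22.7 CPM of Clec4e and 1.80, 29.2 and 3.02 of Clec4d, over 45 UMIs or fewer. Clec4a2 and Clec4b1 had more than 50 UMIs in each of these 3 libraries, Clec4a2 at 45.8, 126 and 48.4 CPM and Clec4b1 at 64.6, 90.6 and 40.8 CPM.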
